A study of Mus musculus with 32 samples.

Results

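The G2/M and mitosis genes are 50 genes that cells transcribe mainly while they pass from G2 through mitosis. They were taken by name, not by any value, as the listed members among the 23154 genes of the series, and all 50 were found and measured. The G2/M list with which the study scored the cell cycle holds 54 genes, of which Fam64a, Hn1, Ctcf and Cbx5 are not members.

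The data are single-cell RNA-seq profiles from 7 untreated mouse embryos of strain C57BL/6J, of which 3 were taken on embryonic day 9.5 (E9.5), 2 a day later (E10.5) and the other 2 on E11.5. The 8 organs were the heart, the liver, the lung, the intestine, the skin, the somites and both the forebrain and the hindbrain. E9.5 embryo 2 is labelled female and the others male. In E9.5 embryo 3, lung and liver cells form a single sample, as do skin, intestine and somite cells. At E10.5 and E11.5 both embryos of a day share a single sample per organ, and the embryo of a cell is read from the cell's name. Cells were picked by hand, and of 1916 profiled cells the study kept 1819; 14 of these are exact copies of another cell and were counted once, which left 1805, of which 1801 carry 1 of the 4 major groups of the study's annotation (246 hematopoietic, 382 neuronal, 304 epithelial and 869 mesoderm-derived cells). The deposited unit, named TPM by the authors, is the UMI count of a gene scaled to a total of 1000000 per cell; it holds no gene length. Levels are given as log2(TPM/10 + 1), where a value of at least 1 is taken as expression and a difference understates the change of a low gene.

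Embryos are the replicates, each represented by the mean of at least 3 of its cells: those of a group over all organs where the 4 groups are compared, and those of a group in 1 organ for the sets of organs, slopes and liver. Depth ran from 20326 to 2524348 UMIs per cell (median 306271). E9.5 embryos 1 and 2 are labelled HiSeq 2500 and the other 5 embryos HiSeq 4000, and the only E9.5 brains and hearts are those of the former, so that in these organs day and sequencer cannot be told apart. Defining markers mostly went with the group names: all 6 epithelial markers in epithelial cells and all 7 neural progenitor markers in neuronal cells averaged at least 1, and the neuron, epithelial and mesenchymal lists had no such marker in hematopoietic cells. In the latter, however, 3 of 7 cardiomyocyte markers (summing to 0.93 to 26.14 per embryo), 3 of 6 myotome muscle markers and 2 of 7 neural progenitor markers averaged at least 1. Of their own lists this held for 4 of 5 primitive erythroid, 4 of 8 definitive erythroid, 3 of 5 myeloid or megakaryocyte progenitor, 1 of 5 macrophage and 0 of 5 erythro-myeloid progenitor markers. Among the sets, intestine mesenchymal cells had all 6 mesenchymal markers at 1 or more, but also 4 of 6 epithelial ones (summing to 7.36 to 14.24 per embryo). Skin epithelial cells had all 6 epithelial markers at 1 or more, but also 5 of 6 mesenchymal ones (3.71 to 13.48). The part of RNA from other cells in the results was not tested. Embryonic globins were read in every group, with the 5 primitive erythroid markers summing to 13.70 to 40.23 per embryo in hematopoietic cells, 7.36 to 22.54 in neuronal, 5.85 to 11.55 in epithelial and 11.07 to 16.59 in mesoderm-derived cells.

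Entry into mitosis is driven by CDK1 with a B-type cyclin. Aurora kinases then mature the spindle poles and correct chromosome attachment, condensin and topoisomerase II shape the chromosomes, the kinetochore and its checkpoint hold anaphase back, and the anaphase-promoting complex with CDC20 ends mitosis by destroying cyclin B and securin. Many of these genes share promoter elements: a CHR element (TTTGAA), bound by MuvB complexes, which repress the genes in resting cells and activate them in cycling ones, and CCAAT boxes, bound by NF-Y. In embryos, progenitors of blood, brain and connective tissue divide rapidly, and neurons and muscle cells leave the cycle as they differentiate.

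The promoters of the members were rich in both elements. RefSeq promoters (GRCm38.p6, 250 bases before to 50 after a start) were matched by symbol for 44 members with 48 promoters; Tpx2, Smc4, Aurkb, Cdc25c, Dlgap5 and Cdca2 had no entry. TTTGAA, read on both strands (TTTGAA or TTCAAA), occurred in 33 of the 48 (68.8%), against 17.9% of all 32851 promoters of the table. CCAAT on either strand (CCAAT or ATTGG) occurred in 37 (77.1%) against 37.4%, and both occurred in 27 (56.2%) against 6.95%; the elements can overlap. From 50 bases before to 50 after the start, TTTGAA occurred in 27 (56.2%) against 4.94%. These are matches of letters, not bound sites. The promoters shown are those of Hmmr, which differed most between blood cells and the other groups, of Ccnb2, called in blood and forebrain, of Aurka and Cdc20, which had the steepest negative slopes in hindbrain and forebrain respectively, and of Birc5, which was called in 3 comparisons and whose window has neither element. Capitals mark the elements, and each sequence reads 5′ to 3′ along the strand of the gene.
Hmmr (chr11:40733388-40733687, minus strand): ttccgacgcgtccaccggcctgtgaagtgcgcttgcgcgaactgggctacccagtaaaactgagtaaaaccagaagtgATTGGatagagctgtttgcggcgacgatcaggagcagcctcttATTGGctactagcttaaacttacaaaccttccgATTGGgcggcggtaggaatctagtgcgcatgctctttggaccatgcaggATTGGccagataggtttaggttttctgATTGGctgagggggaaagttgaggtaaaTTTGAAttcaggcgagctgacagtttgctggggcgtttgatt
Ccnb2 (chr9:70421505-70421804, minus strand): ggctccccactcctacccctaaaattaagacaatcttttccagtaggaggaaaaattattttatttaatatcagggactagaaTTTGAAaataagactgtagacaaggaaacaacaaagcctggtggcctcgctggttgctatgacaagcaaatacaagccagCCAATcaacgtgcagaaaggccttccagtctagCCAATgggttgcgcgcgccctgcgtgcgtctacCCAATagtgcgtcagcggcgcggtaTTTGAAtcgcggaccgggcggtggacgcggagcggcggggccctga
Aurka (chr2:172370521-172370820, minus strand): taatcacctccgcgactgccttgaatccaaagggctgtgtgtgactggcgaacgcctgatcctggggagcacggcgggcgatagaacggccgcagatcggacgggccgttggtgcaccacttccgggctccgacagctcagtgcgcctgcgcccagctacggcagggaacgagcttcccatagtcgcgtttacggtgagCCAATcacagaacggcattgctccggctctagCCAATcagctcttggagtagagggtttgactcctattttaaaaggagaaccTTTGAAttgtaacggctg
Cdc20 (chr4:118437294-118437593, minus strand): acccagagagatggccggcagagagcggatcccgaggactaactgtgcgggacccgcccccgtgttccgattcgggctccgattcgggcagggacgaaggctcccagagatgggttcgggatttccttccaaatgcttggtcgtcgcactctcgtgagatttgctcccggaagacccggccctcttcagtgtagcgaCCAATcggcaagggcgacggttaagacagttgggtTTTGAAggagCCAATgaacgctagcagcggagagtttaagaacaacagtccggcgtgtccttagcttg
Birc5 (chr11:117848987-117849286, plus strand): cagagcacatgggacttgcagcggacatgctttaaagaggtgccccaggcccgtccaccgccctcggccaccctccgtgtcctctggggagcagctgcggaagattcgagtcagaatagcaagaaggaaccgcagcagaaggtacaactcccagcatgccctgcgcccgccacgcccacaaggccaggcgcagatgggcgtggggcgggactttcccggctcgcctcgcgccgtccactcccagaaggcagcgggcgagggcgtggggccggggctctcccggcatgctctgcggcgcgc

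The members were expressed at very different levels but were correlated over cells. Averaged over the 4 groups, the highest member was Hmgb2, a chromatin protein that bends DNA, at 7.02, followed among the leaders of each role by Cks1b, the small subunit of cyclin-dependent kinases (5.46), Birc5, the survivin subunit of the chromosomal passenger complex (4.47), Ube2c, the ubiquitin-conjugating enzyme of the anaphase-promoting complex (4.44), Cenpa, the centromeric histone H3 variant (4.25), Tubb4b, a beta-tubulin (4.19), and Kif20b, a kinesin of the late mitotic spindle (2.33). The lowest was Hjurp, the chaperone that loads Cenpa, at 0.30. Over all kept cells the correlation of a member with the mean of the other 49 had a median of 0.714 and ran from 0.158 for Hjurp to 0.839 for Tpx2, the activator of Aurora A; these are correlations across cells, which share library and depth, and are given as a description. The median was 0.765 in neuronal and 0.575 in hematopoietic cells. The mean over the 50 members, used below as the G2/M score of a cell, was 2.74 over cells (SD 1.18) and ran from 0.27 to 5.77; it went with the UMIs of the cell (Spearman rho 0.363 over 1805 cells) and with the score of 43 G1/S genes (rho 0.408).

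Hematopoietic cells had the highest mean G2/M score of the 4 groups and the smallest spread between embryos. Their G2/M score was 3.02 ± 0.11 (SD, n = 7 embryos), with embryos between 2.90 and 3.18. Of the 246 hematopoietic cells 178 came from liver, and E9.5 embryos 1 and 2 had none of these. Each embryo weighed the same, whatever its number of cells (at least 3). The score was 2.76 ± 0.59 in neuronal cells (n = 6, 2.01 to 3.50), 2.66 ± 0.23 in mesoderm-derived cells (n = 7, 2.27 to 3.03) and 2.49 ± 0.34 in epithelial cells (n = 7, 1.99 to 2.91). The ranges overlapped: E9.5 embryos 1 and 2 in neuronal cells lay above all hematopoietic embryos, and the highest epithelial and mesoderm-derived embryos reached into their range. The study calls a cell quiescent when both its G2/M and its G1/S score are under 2. The share of cells with a G2/M score of 2 or more was 91.6% ± 6.85 in hematopoietic cells, 63.2% ± 24.4 in neuronal, 64.9% ± 11.6 in mesoderm-derived and 60.8% ± 15.6 in epithelial cells. With every cell thinned to 100000 UMIs, which kept 227 hematopoietic, 323 neuronal, 757 mesoderm-derived and 267 epithelial cells and left out the shallower ones, the shares were 92.0%, 65.2%, 67.8% and 61.6%. Cells under 2 on both the score of the 50 members and the G1/S score made up 5.68% ± 5.61 of hematopoietic and 31.9% ± 21.0 of neuronal cells. They made up 26.3% ± 11.2 of epithelial and 18.5% ± 10.2 of mesoderm-derived cells. The G2/M list of the study holds 54 genes, and quiescent shares were not computed with it. With the 54 genes the shares at 2 or more were 91.6% in hematopoietic, 65.7% in neuronal, 67.2% in mesoderm-derived and 62.5% in epithelial cells. No p is given for a score, since it is a mean over chosen genes.

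Of the 50 members, 8 were higher in hematopoietic cells than in the mean of the other 3 groups and none lower (adjusted p under 0.05 and a difference of at least 1 on the log2 scale, limma, Benjamini-Hochberg over 17425 genes), where 2.68% of all genes tested were called higher. The called members were Hmmr, Mki67, Birc5, Tubb4b, Ccnb2, Aurkb, Aurka and Cdca8. Fam64a, which is in the study's G2/M list but is not a member, was called lower (−1.42, adjusted p = 5.87e-05, limma). By adjusted p alone, without the minimum difference, 22 members were higher, against 17.0% of all genes, and 4 were lower, against 33.2%. The median difference of the members was 0.34, with 37 above 0, and that of all genes −0.03.

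The chromosomal passenger complex and the Aurora kinases with their activator held 4 of the 8 calls: 4 of their 5 members were called (Birc5, Aurkb, Cdca8 and Aurka) and the fifth, Tpx2, differed by 0.80. Birc5 had embryo means of 5.21 to 5.49 in hematopoietic cells (median 5.34), 2.51 to 5.16 in neuronal cells (median 4.06), 2.99 to 4.79 in epithelial cells (median 3.93) and 4.00 to 5.05 in mesoderm-derived cells (median 4.43). Every hematopoietic embryo thus lay above every embryo of the other groups, and the difference was 1.16 ± 0.26 (SE; adjusted p = 0.0005, limma). Aurka, the kinase of the spindle poles, was at 3.10 to 3.37 in hematopoietic cells, above all epithelial (1.42 to 2.34) and mesoderm-derived (1.70 to 2.72) embryos but not above E9.5 embryos 1 and 2 in neuronal cells (3.22 and 3.74); its difference was 1.01. Cdca8 (borealin) differed by 1.01 and Aurkb, the enzyme of the complex, by 1.02.

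The largest differences were those of a spindle protein and of the standard proliferation marker. Hmmr, a microtubule-binding protein of the spindle, was at 3.36 to 4.25 in hematopoietic embryos (median 3.81), at 1.22 to 3.4 in neuronal (median 1.99), 1.02 to 3.09 in epithelial (median 2.08) and 1.61 to 2.87 in mesoderm-derived embryos (median 2.26). Only E9.5 embryo 2 in neuronal cells, at 3.4, exceeded the lowest hematopoietic embryo, and the difference was 1.69 ± 0.24 (adjusted p = 1.87e-06, limma). Hmmr was expressed in 88.2% of hematopoietic cells and in 45.7% to 58.9% of the cells of the other groups. Mki67, which coats mitotic chromosomes, was at 4.32 to 4.71 in 6 hematopoietic embryos and at 3.24 in E9.5 embryo 3, against at most 3.90 elsewhere; it differed by 1.42 ± 0.20 (adjusted p = 1.98e-06). Tubb4b and Ccnb2, the B-type cyclin of the list, each differed by 1.14, with Ccnb2 at 4.19 to 5.16 in hematopoietic embryos and at 2.29 to 4.58 elsewhere.

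No kinetochore or cytokinesis member was among the calls, where 2.68% of all genes were called higher. Of 9 kinetochore, centromere and checkpoint genes 2 were higher by adjusted p alone, against 17.0% of all genes, their median being 0.25. Of 5 cytokinesis genes none was, their median being 0.19. With so few genes per role these counts do not set the 2 roles apart from all genes. Cenpf, a large kinetochore and matrix protein, had a median of 3.38 in hematopoietic and 4.00 in neuronal embryos. The lowest members were Psrc1, a spindle protein that promotes microtubule growth, at −0.83, and Ckap5, a microtubule polymerase, at −0.59. Psrc1 was at 0.63 to 1.08 in hematopoietic embryos and at 1.11 to 2.60 in the other groups, so that no embryo overlapped, but it stayed short of the needed difference of 1. Cdk1 itself, at a median of 4.43 in hematopoietic, 2.93 in neuronal, 3.23 in epithelial and 3.93 in mesoderm-derived embryos, differed by 0.65 (adjusted p = 0.0331), and Top2a, Cdc20 and Ube2c by 0.63, 0.66 and 0.64.

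**Figure D1:**
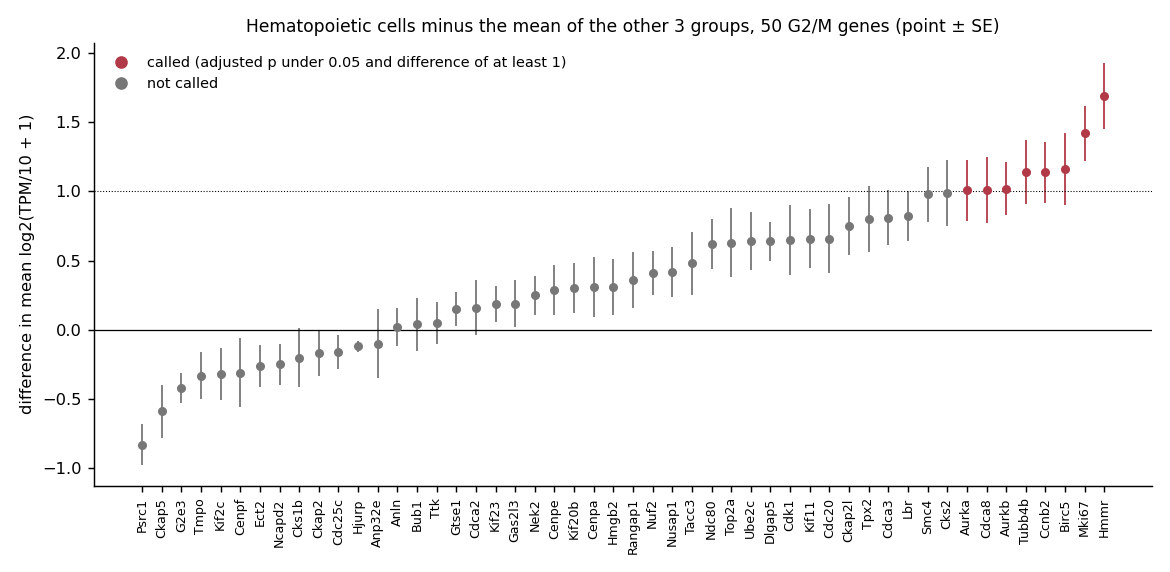
Difference of each of the 50 members between hematopoietic cells and the mean of the other 3 groups, in log2 units of embryo means; points are estimates, bars are ± 1 SE, red points are called and the dotted line is the difference needed for a call. The 8 called members lie between 1.01 (Aurka, Cdca8) and 1.69 (Hmmr), 37 members lie above 0, and Psrc1 is lowest at −0.83.

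The count of 8 depended on settings. On UMIs summed per embryo (edgeR), where the median of all genes lay at −0.30, the members called were Mki67, Tubb4b and Hmmr, higher, and Psrc1, lower; without E11.5 embryo 1 it was 3, without E11.5 embryo 2 it was 5, and with HiSeq 4000 embryos alone it was 14. Within the liver, where 178 of the hematopoietic cells were picked, no member was called against liver epithelial cells (7.33% of all genes were called in either direction; limma, with 2 members at an unadjusted p under 0.05): Hjurp differed by −0.36 (adjusted p = 0.0208) and Tubb4b by 0.72 (adjusted p = 0.139; by edgeR it was called, at 1.02 with adjusted p = 0.0174).

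No member was called in neuronal cells against the other groups (3.31% of all genes were called in either direction), in epithelial cells (2.27%) or in mesoderm-derived cells (1.52%), by limma or by edgeR with its default factors. By limma 14, 19 and 5 members had an unadjusted p under 0.05. The share of all genes at an unadjusted p was not computed for any comparison, so these counts have no background beside them. Other settings called some, such as Psrc1 in neuronal cells by edgeR with relative log expression factors (1.02). On the log2(TPM + 1) scale, where the same cutoff meets larger differences of low genes, 4 members in neuronal and 7 in epithelial cells were called. By adjusted p alone 6 members were higher in neuronal cells, against 18.6% of all genes, with Cks1b lower by 0.68. The smallest p values among them were those of G2e3, an ubiquitin ligase, at a difference of 0.56 ± 0.12 (neuronal embryos 1.84 to 2.48, others 0.72 to 1.89; adjusted p = 0.000513), and Psrc1, at 0.70 ± 0.15. In epithelial cells 11 members were lower by adjusted p alone, against 6.92% of all genes, led by Ube2c at −0.84 ± 0.21 and Mki67 at −0.74 ± 0.20. In mesoderm-derived cells the smallest p values were those of Tubb4b, at −0.74 ± 0.23, and Lbr, the lamin B receptor, at −0.56 ± 0.18, both lower by adjusted p alone.

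In the forebrain 17 of the 50 members fell from E9.5 to E11.5 by the reported test, with 4 called in thinned cells and none by edgeR. The G2/M score of neuronal cells was 3.53 and 3.70 in the E9.5 embryos, 2.94 and 2.15 at E10.5 and 2.29 and 2.20 at E11.5, and the share of cells at 2 or more was 100% and 100%, then 77.8% and 44.4%, then 40.0% and 36.7%. Thinning to 100000 UMIs left out the shallower cells and kept 146 of the 184. Of the shallower neuron-like brain cluster described below it kept 42 of 78 cells, so that the mix of cells changed too. In the cells so thinned, the scores were 3.52 and 3.65, 3.26 and 2.21, and 2.57 and 2.62. The shares were 100% and 100%, 85.7% and 53.8%, and 55.6% and 47.6%. Both E9.5 embryos lay above all others on either count. The median depth per embryo was 260712 and 1115880 UMIs at E9.5, 181494 and 95277 at E10.5 and 110478 and 158194 at E11.5, and the score of a cell went with its UMIs here (rho 0.598 over 184 cells); the part of depth in the fall was not tested beyond the thinned values.

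Of the members, 17 fell with embryonic day in forebrain (slope of at least 0.5 per day and adjusted p under 0.05; 6.37% of 17179 genes had called negative slopes), none rose, and the median slope was −0.71 against −0.01 for all genes. By role they were 4 of the 9 kinetochore genes (Cenpa, Bub1, Nek2 and Nuf2), 4 of the 9 chromosome and nuclear envelope genes (Smc4, Anp32e, Lbr and Hmgb2), 3 of the 5 passenger complex and Aurora genes (Birc5, Cdca8 and Tpx2), 3 of 12 spindle genes (Tacc3, Tubb4b and Rangap1), 2 of 8 entry genes (Ccnb2 and Cks1b) and Cdc20. None of the 5 cytokinesis genes was among them.

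Cdc20, the activator of the anaphase-promoting complex, had embryo means of 4.66 and 4.13 at E9.5, 2.83 and 1.94 at E10.5 and 1.80 and 1.59 at E11.5. Its slope was −1.35 ± 0.37 per day (adjusted p = 0.00948, limma). Birc5 was at 5.65 and 5.57, 3.71 and 3.45, and 2.99 and 3.28, a slope of −1.24 ± 0.30 (adjusted p = 0.00318). Cdca8 was at 5.22 and 5.63, 4.08 and 2.74, and 3.24 and 2.75, a slope of −1.21 ± 0.32 (adjusted p = 0.00583). In all 3 the E9.5 embryos stood above the rest without overlap, while E10.5 and E11.5 overlapped for Cdca8 alone. Mki67 was at 3.34 and 4.01, 3.14 and 2.12, and 2.81 and 2.66, with a slope of −0.47 (adjusted p = 0.54). Top2a and Cdk1 had slopes of −0.68 and −0.87 that did not pass.

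In the hindbrain 5 members fell, against 1.66% of all genes. Aurka was at 3.08 and 3.97 at E9.5, 2.01 and 3.32 at E10.5 and 0.85 and 1.40 at E11.5, a slope of −1.20 ± 0.36 per day (adjusted p = 0.0439). Birc5 was at 4.64 and 4.87, 4.13 and 4.59, and 1.92 and 2.84 (slope −1.18 ± 0.30, adjusted p = 0.0112). Cks1b was at 5.71 and 5.49, 4.96 and 5.27, and 3.21 and 4.13 (slope −0.96 ± 0.20, adjusted p = 0.00108). The drop here lay between E10.5 and E11.5: in each of the 3 genes both E11.5 embryos were below all the others. Anp32e, a chaperone that removes the histone variant H2A.Z, and Smc4, a core subunit of condensin, had slopes of −0.85 and −0.82. Anp32e, Birc5, Cks1b and Smc4 were called in both brain parts, which is 4 of the 17 forebrain and 4 of the 5 hindbrain calls. Over all genes 222 were called lower in both parts, 20.3% of the forebrain and 77.6% of the hindbrain calls. The share of members is near that of all genes, and both parts come from the same embryos. The score of hindbrain neuronal cells was 3.10 and 3.55, 2.91 and 3.02, and 1.68 and 2.27, and the share at 2 or more 74.4% and 81.2%, 80.0% and 63.0%, and 19.2% and 44.0%.

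**Figure D2:**
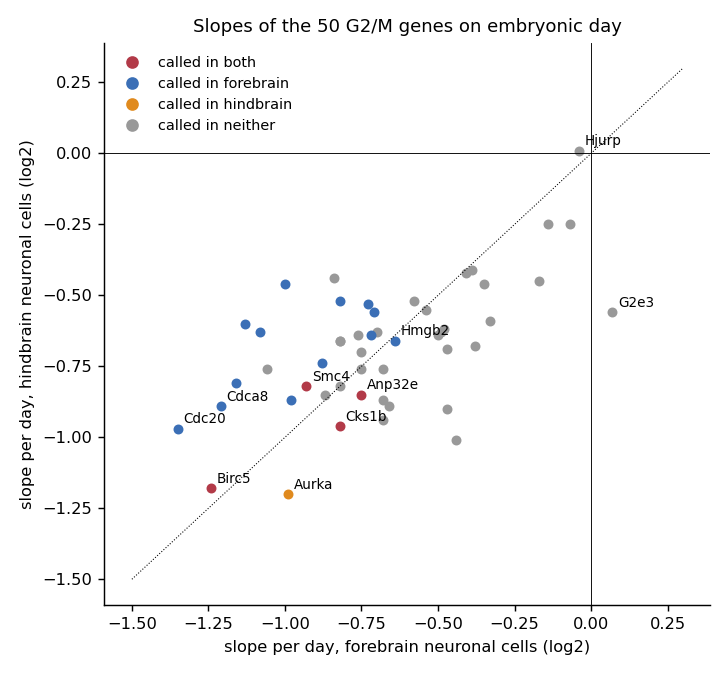
Slope of each of the 50 members on embryonic day in forebrain (x axis) and hindbrain (y axis) neuronal cells, in log2 units per day; colours mark the parts in which a member was called and the dotted line marks equal slopes. All but 1 member lie below 0 in each part, Cdc20 is lowest in forebrain (−1.35) and Aurka in hindbrain (−1.20); the values share their embryos.

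The forebrain count differed between settings. Among the 4 HiSeq 4000 embryos (E10.5 and E11.5) the slopes of Cdc20, Birc5 and Cdca8 were −0.69, −0.45 and −0.42 and no member was called; without E9.5 embryo 1 it was 3 members, without E9.5 embryo 2 it was 5, and without E11.5 embryos 1 and 2 in turn it was 8 and 11. On UMIs summed per embryo, in which deep cells weigh more, no member was called by edgeR in either brain part, the median slope being −0.08 in forebrain and −0.42 in hindbrain. With thinned cells, 4 members (Birc5, Cks1b, Tacc3 and Cdc20) were called in forebrain and 5 in hindbrain. In hindbrain the HiSeq 4000 embryos alone gave slopes of −1.54, −1.98 and −1.45 for Aurka, Birc5 and Cks1b, with Hmgb2 and Cks2 called; no member was called without E11.5 embryo 1.

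No difference between forebrain and hindbrain passed the test. For the difference of the slopes 0.466% of all genes and no member were called (limma and edgeR; 0 members at an unadjusted p under 0.05 by limma); the smallest p values were those of G2e3 (0.63 ± 0.39) and Tubb4b (−0.54 ± 0.37), each with an adjusted p of 1. For the level at E10.5, 0.716% of all genes and no member were called (0 members at an unadjusted p under 0.05), Cks1b differing by 0.36 ± 0.23 and Hmgb2 by 0.29 ± 0.24.

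Cells of the brain fell into 4 clusters, built without the members and the other listed cell cycle genes, which are given as a description with no test. A cluster led by Mest, 2810417H13Rik and Srm, with Hmga2 and Ccnd1 also among its 10 leading genes, held 135 cells, all of E9.5. Its score was 3.71 over cells, with 99.3% at 2 or more (95% Wilson interval 95.9% to 99.9%). A cluster led by Fabp7 held 82 cells with a score of 3.46 (87.8% at 2 or more). Embryonic globins, the members Cenpf and Ube2c and, last, Hes5 were also among its 10 leading genes. The neuron-like clusters held 78 cells (score 1.83, 24.4% at 2 or more, interval 16.2% to 34.9%, median depth 107535 UMIs) and 72 cells (score 1.75, 27.8%, median depth 256708). Intervals cover counting error only. The first neuron-like cluster held no forebrain cell at E9.5 and 22.2% and 70.4% of them at E10.5 and 66.7% and 86.7% at E11.5; the summed level of the 8 neuron markers ran from 5.88 to 36.81 over forebrain and from 16.48 to 37.40 over hindbrain embryos. Within the cluster led by Fabp7 the score per embryo was 3.63 and 3.61 at E10.5 and 3.30 and 3.17 at E11.5. Within the second neuron-like cluster, all of hindbrain, it was 2.30 and 2.19 at E9.5, 2.19 and 1.16 at E10.5 and 0.99 and 1.26 at E11.5. Birc5 averaged 5.61 and 5.04 in the first 2 clusters and 2.37 and 2.45 in the neuron-like ones, and Cdc20 averaged 4.42 and 3.85 against 1.35 and 1.68. The part of the changing makeup in the falls of the embryo means was not tested.

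**Figure D3:**
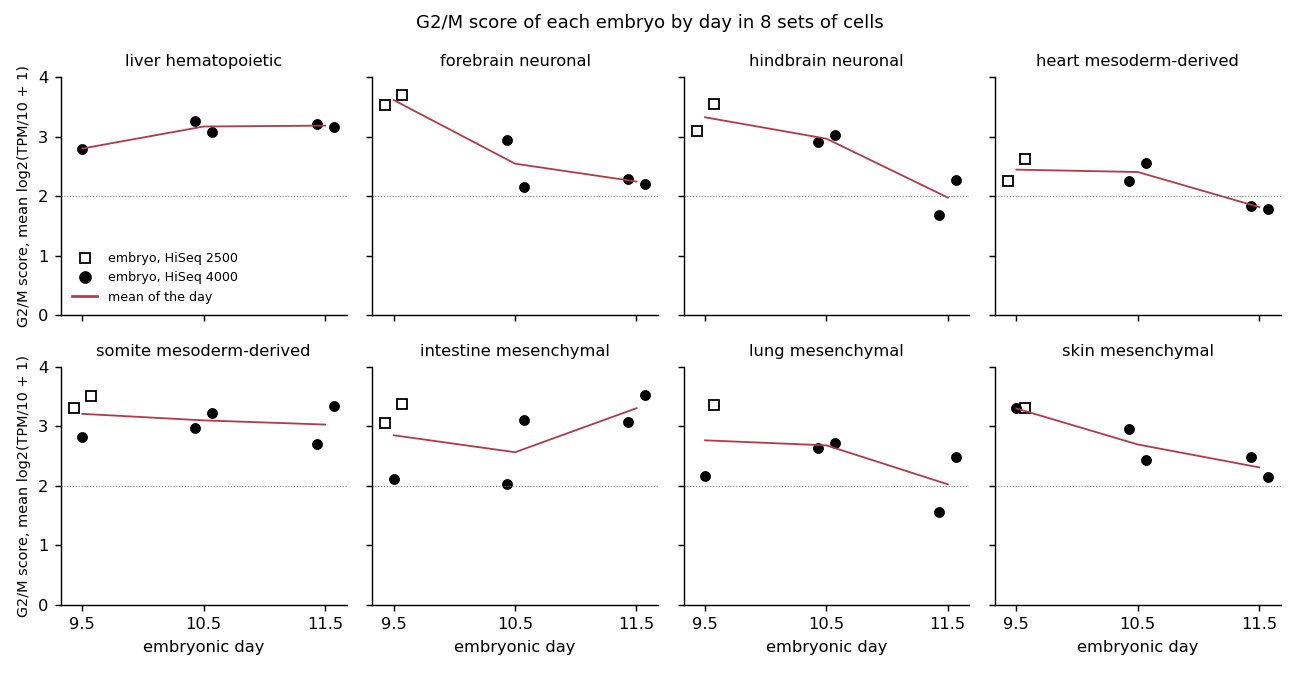
G2/M score of each embryo (y axis, mean log2(TPM/10 + 1) over the 50 members) by embryonic day (x axis) in 8 sets of cells; points are embryos, the marker gives the sequencer, the line joins the means of the days and the dotted line is the cutoff of 2. Forebrain goes from 3.53 and 3.70 to 2.29 and 2.20, heart stays lowest of the 8 sets on average at 2.22, and liver hematopoietic cells stay between 2.80 and 3.26.

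In liver hematopoietic cells no slope on day was called among members (0.716% of all genes; 0 members at an unadjusted p under 0.05 by limma). The score was 2.80 at E9.5 (embryo 3), 3.26 and 3.08 at E10.5 and 3.21 and 3.16 at E11.5. Mki67 was at 3.03, then 4.74 and 4.32, then 4.61 and 4.37 (slope 0.62 ± 0.40, adjusted p = 1), and without the single E9.5 embryo its slope was −0.04. Hmgb2 was at 6.84, then 7.80 and 7.64, then 7.89 and 7.80 (slope 0.45 ± 0.25). E9.5 was thus represented by 1 embryo with the lowest value of both genes.

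The clusters of blood cells differed in G2/M score, again as a description. Of 5 clusters, one led by Bcl11a and Vamp5 (88 cells) had a score of 3.20 with an SD over cells of only 0.32 and 100% of cells at 2 or more (interval 95.8% to 100%). An erythroid-like cluster (79 cells, led by Alas2, Slc4a1 and embryonic globins) had a score of 3.13 with an SD of 0.92 and 88.6% of cells at 2 or more. A cluster led by Gmfg, Plek and Srgn (39 cells) was at 3.24, and a macrophage-like cluster (35 cells) at 2.73 with 82.9%. The remaining 5 cells, led by the platelet genes Pf4 and Gp9, were at 0.64 to 1.09, none at 2 or more; a count of 0 allows a share of up to 60% by 3 counts of 5, and the Wilson interval reaches 43.4%; their mean Tubb4b, 6.41, was nevertheless above that of every other cluster examined in blood (3.82 to 5.24). Mki67 was highest in the erythroid-like cluster (5.18, against 4.31 and 4.23 in the Bcl11a and Plek clusters), while Cdc20 was highest in the Bcl11a cluster (4.24, against 3.24 in the erythroid-like one).

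In heart cells 5 of the 50 members were lower than in somite and the intestine, lung and skin mesenchymal sets. The heart score was 2.26 and 2.63 at E9.5, 2.26 and 2.55 at E10.5 and 1.84 and 1.79 at E11.5, with a mean of 2.22 ± 0.35 (n = 6). It was 3.13 ± 0.29 in somite (n = 7), 2.90 ± 0.59 in intestine mesenchymal (n = 7), 2.77 ± 0.49 in skin mesenchymal (n = 6) and 2.49 ± 0.60 in lung mesenchymal cells (n = 6). Within an embryo the order could differ, as in E11.5 embryo 1 with 1.56 in lung and 1.84 in heart and in E10.5 embryo 1 with 2.03 in intestine and 2.26 in heart. Liver mesenchymal cells (2.64 ± 0.11, n = 3), all of E9.5, were not in this comparison. The share at 2 or more was 47.9% ± 17.6 in heart and 84.1% ± 14.8 in somite (thinned, 54.4% and 84.2%). The 5 members called lower in heart than in the mean of those 4 sets, at E10.5 of the fit, against 1.82% of all genes, were Top2a, Mki67, Kif20b, Cenpf and Aurkb. By adjusted p alone 21 were lower (11.4% of all genes), among them 7 of the 9 chromosome and nuclear envelope genes and 6 of the 9 kinetochore genes, and the median difference was −0.66 against −0.02 for all genes.

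Top2a, the topoisomerase that untangles sister chromatids, was at 1.67 to 3.92 in heart embryos (median 3.06), 3.84 to 5.33 in somite (median 4.44), 2.83 to 5.46 in intestine (median 4.82), 3.0 to 4.68 in lung (median 3.30) and 2.34 to 4.68 in skin mesenchymal embryos (median 3.80). Its difference was −1.12 ± 0.35 (adjusted p = 0.0138, limma). Mki67 was at 1.32 to 2.81 in heart (median 2.34) against 2.90 to 4.56 in somite, and its difference was −1.11 ± 0.30 (adjusted p = 0.00443). Kif20b was at 1.07 to 2.13 in heart against 1.96 to 3.31 in somite (−1.11 ± 0.30, adjusted p = 0.0044). Heart and somite embryos did not overlap for Mki67 and overlapped slightly for Top2a and Kif20b, whereas the lung embryos overlapped those of heart for all 3. Ube2c, Tubb4b and Ccnb2 did not pass, at −0.04, −0.04 and −0.18.

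**Figure D4:**
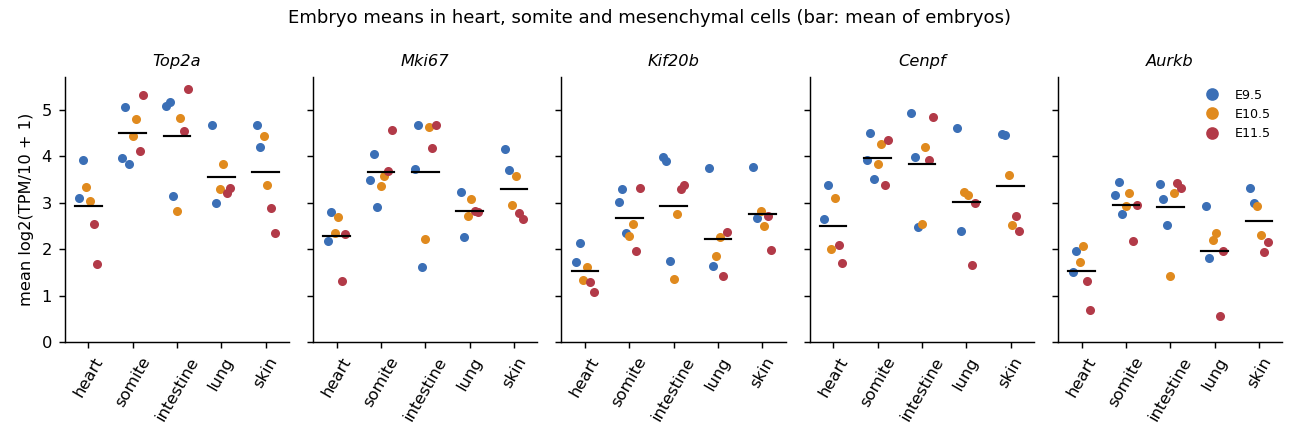
Embryo means (points, log2(TPM/10 + 1)) of the 5 members called lower in heart, in heart, somite and intestine, lung and skin mesenchymal cells; bars are means over embryos and colours mark the day. Mean Mki67 is 2.28 in heart and 3.66 in somite, and lung embryos overlap those of heart.

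With HiSeq 4000 embryos alone no member was called lower in heart (Top2a −0.66, Mki67 −0.63, Kif20b −0.84), without E9.5 embryo 1 or E11.5 embryo 2 it was 1, without E9.5 embryo 2 it was 3, and without E9.5 embryo 3, which has no heart cells, it was 9; by edgeR only Cdca2 was called (−1.07, adjusted p = 0.0398). Primitive erythroid markers summed to 18.13 to 21.98 in heart embryos, and their part was not tested.

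Within the heart, clusters differed in G2/M score, as a description. A cardiomyocyte-like cluster led by Ttn and Myh6 (62 cells) had a score of 2.40 and 58.1% of cells at 2 or more, another led by Myl2 and Myl3 (62 cells, median depth 101856 UMIs) 1.72 and 27.4% (thinned, 38.7% of 31 cells), an epicardial-like cluster (56 cells) 2.72 and 67.9%, and a cluster led by Hapln1 and Ramp2 (56 cells) 2.23 and 46.4%. The Myl2 cluster was 8.89% and 4.44% of heart cells at E9.5, 31.4% and 9.30% at E10.5 and 48.6% and 72.7% at E11.5. Over days 1 member fell in heart, against 2.76% of all genes with called negative slopes: Anp32e, at 4.72 and 4.46, 3.27 and 3.49, and 3.04 and 2.83 (slope −0.83 ± 0.24, adjusted p = 0.0292). The call was lost with HiSeq 4000 embryos alone (−0.45), with thinned cells (−0.71, adjusted p = 0.117), by edgeR (−0.37, adjusted p = 0.72) and without embryo 1 of any day or embryo 2 of E9.5 or E11.5, while without E9.5 embryo 3 there were 2 calls.

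Somite cells were at the upper end of the mesoderm-derived sets. Compared with heart and the mesenchymal sets, 49 of 50 members had a positive difference with a median of 0.51, but none was called (1.11% of all genes in either direction; by limma 28 members had an unadjusted p under 0.05, and edgeR called 0), and 6 were higher by adjusted p alone against 4.93% of all genes: Bub1, Kif11, Rangap1, Hmgb2, Anp32e and Ncapd2. Bub1, a kinase of the spindle checkpoint, was at 2.52 to 3.19 in somite embryos and 1.16 to 1.73 in heart embryos, without overlap, and differed by 0.86 ± 0.22 (adjusted p = 0.00552). Hmgb2 was at 7.52 to 7.86 in somite and 6.03 to 6.93 in heart and differed by 0.65 ± 0.18. Over days no somite slope was called (0.378% of all genes; 1 member, Tmpo, at an unadjusted p under 0.05, with a slope of 0.43 ± 0.22; edgeR called 0), Cdc20 sloping by −0.64 ± 0.34. A myotome muscle-like cluster of 29 somite cells, with Cdkn1a and Cdkn1c among its 10 leading genes, had a score of 2.33 and 62.1% of cells at 2 or more. The score was 3.18 in a cluster led by Fos and Igf1, with embryonic globins and Dlk1 among its 10 leading genes. It was 3.44 in a cluster led by Arg1 and Prtg and 3.2 in a cluster led by Hoxc13, with Pax1 among its 10 leading genes. A cluster of 2 cells was at 2.26. The one led by Arg1 and Prtg held only cells of E9.5 embryos 1 and 2.

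**Figure D5:**
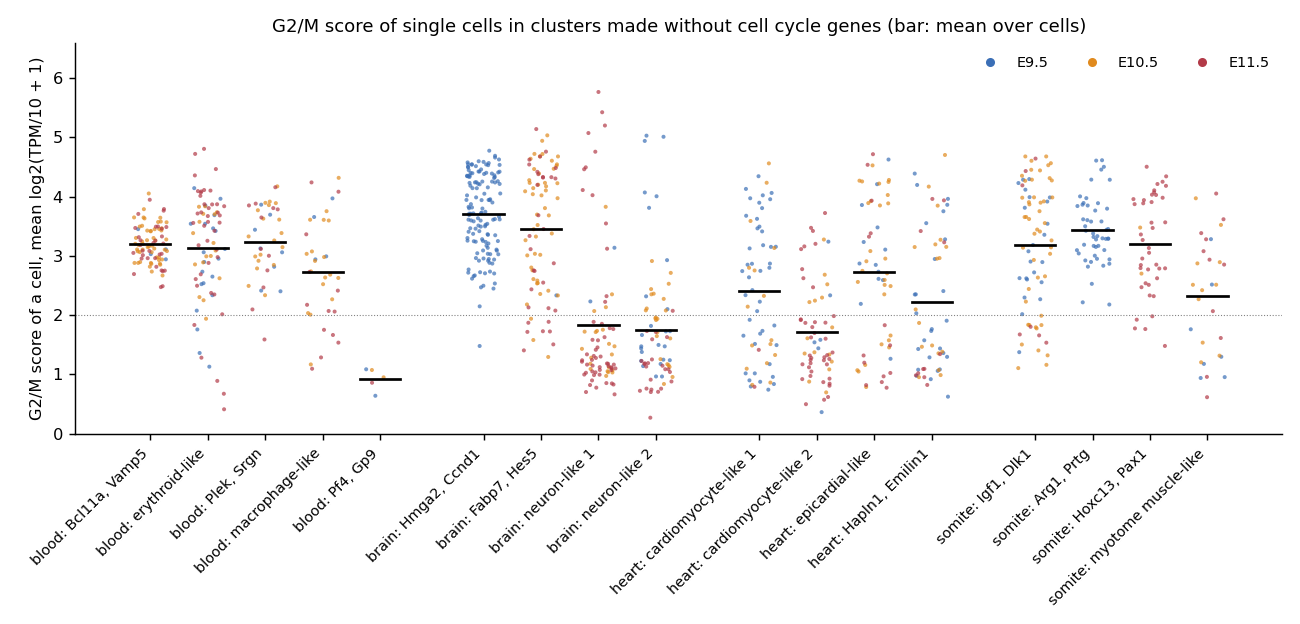
G2/M score of single cells (y axis) in clusters of blood, brain, heart and somite cells (x axis). Clusters were made without the members and the other listed cell cycle genes, while cell cycle genes outside the lists could take part. Points are cells coloured by day, bars are means over cells and the dotted line is the cutoff of 2. The Bcl11a and Vamp5 blood cluster spans 2.47 to 4.06, the 5 Pf4 and Gp9 cells 0.64 to 1.09, and the neuron-like clusters average 1.83 and 1.75.

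In skin mesenchymal cells 2 members fell with day, against 0.349% of all genes with called negative slopes. Cdca3, a trigger of mitotic entry, was at 4.28 and 4.43 at E9.5, 3.76 and 2.82 at E10.5 and 2.44 and 1.72 at E11.5 (slope −1.14 ± 0.28, adjusted p = 0.0169). Nuf2, a subunit of the kinetochore complex that grips microtubules, was at 2.64 and 2.98, 2.03 and 1.87, and 0.92 and 1.04 (slope −0.92 ± 0.21, adjusted p = 0.00677). In both genes no day overlapped another, and here E9.5 comes from both sequencers; among HiSeq 4000 embryos Nuf2 kept its call (−1.0, adjusted p = 0.0275) and Cdca3 did not (−1.18, adjusted p = 0.11), by edgeR neither passed (adjusted p = 0.423 and 0.701), and 1 of the calls remained without E9.5 embryo 2, E9.5 embryo 3 or E11.5 embryo 2. The score of skin mesenchymal cells was 3.30 and 3.30, 2.95 and 2.44, and 2.48 and 2.14.

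In intestine mesenchymal cells no member was called (1.34% of all genes in either direction; 3 members at an unadjusted p under 0.05, edgeR 0), with 44 of 50 slopes above 0. Cdca3 was at 2.93, 3.71 and 2.02 at E9.5, 2.90 and 3.70 at E10.5 and 3.86 and 4.8 at E11.5 (slope 0.70 ± 0.26, adjusted p = 0.155), and Nuf2 had a slope of 0.49 ± 0.19. In lung mesenchymal cells no member was called either (1.69% of all genes; 10 members at an unadjusted p under 0.05, edgeR 0), with 46 of 50 slopes below 0. Birc5 was at 5.48 and 4.17, 4.36 and 4.4, and 2.05 and 3.69 (slope −0.98 ± 0.30, adjusted p = 0.0664), and Cdca8 had a slope of −0.86 ± 0.32; without E9.5 embryo 3 the lung slopes gave 5 called members and without E11.5 embryo 2 they gave 1. The difference of slopes between the mesenchymal sets was not tested.

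Other cell cycle genes were taken from lists chosen for their role. Of 43 genes of the G1/S list of the study, 5 were higher in hematopoietic cells (2.68% of all genes), among them Fen1, a nuclease of DNA replication (1.46). In forebrain 33 fell (6.37% of all genes), led by Hells, a chromatin remodeller (−1.56 ± 0.27 per day), and Mcm5, a subunit of the replicative helicase (−1.43). In hindbrain 16 fell (1.66% of all genes) and in heart over days 5 (2.76%). In lung mesenchymal cells 8 fell (1.69% of all genes in either direction) and in skin mesenchymal cells 3 (0.349%). In heart 7 were lower than in the other mesodermal sets (1.82% of all genes). For brain and heart, day and sequencer cannot be told apart, and counts of these lists under other settings are not given. Of 43 further mitosis genes, 6 were higher (2.68% of all genes) and 1, the microtubule destabilizer Stmn1 (−1.72), lower in hematopoietic cells. In forebrain 19 fell (6.37% of all genes) and 1 rose, among the former Spc24, a kinetochore subunit (−1.36), and Ccnb1 (−1.25). Of 9 genes listed as inhibitors of cyclin-dependent kinases only Cdkn1c was called in hematopoietic cells, where it was lower (−2.96). Cdkn1a was higher in epithelial cells (1.70), and Cdkn1c was higher in epithelial (1.51) and mesoderm-derived cells (1.64) and in heart against the other mesodermal sets (1.61). The D-type cyclins Ccnd1, which drives cells out of G1, and Ccnd2 were lower in hematopoietic cells (−2.40 and −1.61). Both fell in forebrain (−1.85 and −1.29 per day), while Ccnd3 and Ccne1 were higher in hematopoietic cells (1.06 and 1.02). Fam64a and Hn1 are in the study's G2/M list but are not members. Fam64a was lower in liver hematopoietic than in liver epithelial cells (−1.72) and in heart than in the other mesodermal sets (−1.09). It also fell in forebrain (−1.06 per day), and Hn1 was higher in neuronal cells (1.15).

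Over the 17 comparisons 25 of the 50 members (50%) were called in at least 1 and 25 in none, where 24.1% of the 17179 genes tested in both fits were called in at least 1. Birc5 and Anp32e were called in 3, where 5.39% of all genes were called in at least 3, and 9 members in 2. The members called in none include Cdk1, Nusap1, Ube2c, Cks2, Kif11 and all cytokinesis genes but Kif20b.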

How the data were processed

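Single-cell libraries were prepared by a 3′ UMI method, and the authors aligned reads to mm10 with TopHat2 2.0.12, counted UMIs per gene with HTSeq and deposited CPM per gene and cell, which they call TPM. The HTSeq version and gene annotation are not given in the sources used here. Values times the UMI total of the cell in the study's annotation gave whole UMIs in 100% of values (tolerance 0.05), so that counts could be recovered. Cells kept by the study were used with its groups, 14 exact copies were counted once, and no doublet caller was run, since cells were picked singly by hand.

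Levels log2(TPM/10 + 1) were averaged over at least 3 cells, per embryo and group for the fit over groups and per embryo, organ and group for the fit over sets. Genes expressed in at least 3 cells were fitted with limma 3.58.1 (R 4.3.3; trend, Benjamini-Hochberg per comparison), once over the 4 groups (17425 genes) and once over 12 sets of organ and group with a slope on day per set (17179 genes); sets were compared at day 10.5. A call needed an adjusted p under 0.05 and a difference of at least 1, or a slope of at least 0.5 per day. Cells with the same day and embryo number were taken as 1 animal. The number is in the sample labels at E9.5 and only in the cell names at E10.5 and E11.5. Over 346 pairs of sets of the same embryo the correlation of their deviations over genes ran from −0.239 to 0.418 (median 0.043). A fit with the embryo as block was an alternative. The count test, edgeR 4.0.16 on summed recovered UMIs, was an alternative, as were its relative log expression factors, log2(TPM + 1), other filters, thinned cells, HiSeq 4000 embryos alone and leaving out each embryo. On simulated data for the hematopoietic comparison (17425 genes), 95% of genes changed by 1 had an adjusted p under 0.05 and 6% were called. Of those changed by 2, 64% were called. For the forebrain slope (17179 genes) 35% of genes changed by 1 per day and 96% of those changed by 2 per day were called. These shares hold for the simulated data alone. What share would be found at the spread between the real embryos was not tested. Clusters used Ward linkage on 15 principal components of 1500 variable genes without the listed cell cycle genes.

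The members and lists were chosen with earlier results of these data known. Named were the highest member of each role, 10 standard genes and the 3 called members with the largest change per comparison, or the 2 with the smallest p where none was called. Psrc1 and the other members named beside counts were chosen after their values were seen, as were the other genes of the lists beyond the 3 with the largest change.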

Additional observations from a re-analysis of the deposited data

Results flagged for a closer look

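Dixon's criterion at 95% was applied to the embryo values of the named members in 66 sets of at least 4 embryos, of which chance sets apart about 1 in 20, and 4 had an embryo far from the others. Mki67 in hematopoietic cells was 3.24 in E9.5 embryo 3, where the nearest of the other 6 embryos was at 4.32. In liver hematopoietic cells Mki67 was 3.03 in the same embryo (nearest other 4.32, 5 embryos), and Hmgb2 was 6.84 (nearest other 7.64). These 3 values share that embryo and, in the last 2, their cells; it is the only E9.5 embryo with liver hematopoietic cells enough for a mean. G2e3 in neuronal cells was 2.48 in E9.5 embryo 2, the embryo of greatest depth, where the nearest other was at 2.07 (6 embryos).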

How the results depend on the processing

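Of 289 recomputed counts of called members 225 stayed within 1.5 times the reported one and 64 did not, in 12 of the 17 comparisons; of 629 recomputed values of named members 547 kept direction and side of the threshold, 69 lost their call, 11 gained one and 2 reversed, both uncalled: Mki67 in liver hematopoietic cells over days without E9.5 embryo 3 (−0.04; −0.04 to 0.79 over all left-out embryos), and Hmgb2 between forebrain and hindbrain with HiSeq 4000 embryos alone (−0.04). The counts of called members under other settings have no share of all genes beside them. The cutoffs were kept on the log2(TPM + 1) scale, where a change of a low gene gives a larger difference. On this scale the counts were 20 for hematopoietic, 4 for neuronal and 7 for epithelial cells. They were 29 for the forebrain, 8 for the hindbrain and 2 for the heart slope, and 18 for heart and 7 for somite against the other mesodermal sets. By edgeR they were 4 for hematopoietic cells (also with relative log expression factors, which gave 1 for neuronal cells), 0 for the slopes in forebrain, hindbrain, heart and skin and 1 for heart against the other sets with either factor, and 1 for liver hematopoietic against liver epithelial cells. With thinned cells they were 4 for the forebrain slope, 0 for the heart slope and 3 for heart against the others. With HiSeq 4000 embryos alone they were 14 for hematopoietic and 4 for neuronal cells (all lower), 0 for the forebrain and 2 for the hindbrain slope, 0 for the heart, 2 for the intestine and 1 for the skin slope, and 0 for heart against the others. At least 5 cells per mean gave 1 for the skin slope and 1 for liver hematopoietic against liver epithelial cells, and a filter at 10% of cells gave 1 for the lung slope. Leaving out 1 embryo gave 3 to 10 for hematopoietic cells, 3 to 19 for the forebrain, 0 to 5 for the hindbrain, 0 to 2 for the heart, 0 to 5 for the lung and 1 to 3 for the skin slope, 1 to 9 for heart against the others and 0 to 1 for liver hematopoietic against liver epithelial cells; the last was 1 without E11.5 embryo 2, and the hindbrain count was 0 without E11.5 embryo 1, 2 without E9.5 embryo 2 and 3 without E9.5 embryo 1, either E10.5 embryo or E11.5 embryo 2. The cause of these shifts was not tested. The share of hematopoietic cells was 83.1% at a cutoff of 2.5 and that of mesoderm-derived cells 76.8% at 1.5.

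With the embryo as a replicate block, 8 members were called for hematopoietic cells, 16 for the forebrain, 6 for the hindbrain, 1 for the heart and 2 for the skin slope and 6 for heart against the others, and no count moved by over 1.5 times. Keeping both copies of the repeated cells, an alternative chosen after seeing the data, gave 4 for the hindbrain slope and left the other counts as they were. With edgeR the median slope of members was −0.08 in forebrain and 0.05 in heart (0.01 and 0.08 with relative log expression factors), against −0.71 and −0.29 for means of log values. Few embryos, 1 to 3 per day and set, and low UMI numbers for members such as Hjurp limit all slopes.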

Other observations

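The epithelial sets differed in how the G2/M score went with day, as values without a test. In skin epithelial cells the score was 3.15 and 3.62 at E9.5 (embryos 2 and 3), 2.38 and 2.01 at E10.5 and 1.05 and 1.49 at E11.5, and the share of cells at 2 or more was 71.4% and 100%, 57.1% and 40.0%, and 11.1% and 19.0%. Thinned to 100000 UMIs the shares were 71.4% and 100%, 50% and 36.4%, and 6.25% and 26.7%. Cells under 2 on both the G2/M and the G1/S score made up 0% and 0%, 42.9% and 53.3%, and 88.9% and 81.0% of them. In intestine epithelial cells the score was 1.71, 1.80 and 2.26 at E9.5, 2.42 and 2.65 at E10.5 and 2.69 and 2.58 at E11.5. Liver epithelial cells had a share of 94.6% ± 8.72 at 2 or more (SD, n = 6 embryos), and lung epithelial cells a score of 3.16 ± 0.84 that ran from 2.21 to 4.24. These embryo values rest on 4 to 16 liver and 3 to 18 lung cells. Over all 52 lung epithelial cells the mean score was 2.72.

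Cells over the cutoff on at least 1 score and higher on G1/S than on G2/M made up 51.1% ± 10.9 of hematopoietic cells (n = 7) and 23.5% ± 9.26 of neuronal cells (n = 6), while those higher on G2/M made up 43.3% ± 8.85 and 44.6% ± 15.3. Over 74 embryo means of the 12 sets, the genes outside the members most like the G2/M score were Ccnb1 (Pearson r 0.952), Kif22 (0.926), Plk1 (0.922), Kif4 (0.895) and Bub1b (0.871), and the least like were Calcoco1 (−0.617), Sepw1 (−0.555), Gabarap (−0.551), 0610009L18Rik (−0.541) and Trp53inp1 (−0.532). The embryo means share animals and libraries, and no p is given.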
